A study of Mus musculus with 2 samples.

Results

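The Polycomb and Asxl genes followed here are Ezh1, Ezh2, Suz12, Eed, Bmi1 and Asxl1. They were chosen by symbol from the gene table of a mouse single-cell RNA-seq study, and all 6 were found among its 31053 genes. The cells were LSK CD150+ cells sorted from bone marrow, a sort for stem and progenitor cells by the surface proteins Sca-1, Kit and CD150 with lineage-positive cells removed. The mice were of a Runx1F/F Mx1-Cre model, in which Runx1 is flanked by loxP sites and the recombinase Cre is driven by the interferon-responsive Mx1 promoter. The 2 libraries carry the genotype labels RUNX1 WT and RUNX1 KO, 1 library each. The sources used here do not say whether the WT animals carried Cre, whether an interferon inducer was given, what age the mice were or how many gave each library.

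Polycomb proteins keep genes silent through marks on histones. Polycomb repressive complex 2 (PRC2) adds methyl groups to a lysine of histone H3, with EZH2 or its relative EZH1 as the enzyme and EED and SUZ12 as the subunits that make the enzyme active. Polycomb repressive complex 1 (PRC1), to which BMI1 belongs, adds ubiquitin to histone H2A, and ASXL1 is the partner of the BAP1 enzyme that removes it. In blood formation EZH2 is known for its link to dividing cells, EZH1 for a role in resting stem cells, and BMI1 for stem cell self-renewal. EZH2 and ASXL1 are recurrently mutated in myeloid disease, as is RUNX1.

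Barcodes were kept when 500 or more genes were detected and mitochondrial UMIs made up no more than 10%, which left 9472 in the WT library and 10769 in the KO-labelled library. A UMI is a molecular tag that counts 1 captured RNA molecule. Kept cells had a median of 9884 UMIs in the WT library and 9310 in the KO-labelled library, and 39 barcodes occurred in both. Leaving those out moved none of the counts below. Runx1 itself, the targeted gene, stood at 104 CPM (its UMIs scaled to the library's total) among WT cells and 196 CPM among KO-labelled cells. The 3′ counts do not show whether the floxed part of the gene was missing, so this level cannot settle the label. The second library is called KO-labelled throughout. The libraries also differed in sex: 6690 WT cells carried Y-linked but no Xist UMIs, against 973 KO-labelled cells, where 8927 cells were of the female kind. The summed level of 5 neutrophil markers was 109 CPM (WT) and 593 CPM (KO-labelled), that of 6 megakaryocyte markers was 1875 and 914 CPM, and that of 4 basophil and mast markers was 287 and 165 CPM. All markers of these lists had UMIs in both libraries. The part of sex and of these cell types in any difference between the libraries was not tested.

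Levels are given as CPM, the UMIs of a gene scaled to the UMIs summed over a set of cells. With 1 library per genotype there is no replicate spread, so no test was made, and every interval in parentheses is a 95% interval for counting error only. A ratio was counted as past the fold when it was at least 1.5 either way and the gene stood at 20 CPM or more on either side of the comparison. Ezh1 and Bmi1 lay below that level over all kept cells, so counts over the genes at that level leave them out there. Levels are compared between cells, not between genes.

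The promoters of Ezh2 and Suz12, the members with the largest ratios of cycling to other cells, are shown beside that of Ezh1, whose ratio was below 1. They run from 250 bases before to 15 bases after the RefSeq start, 5′ to 3′ along the gene's own strand, on GRCm38.p6. Ezh1 is at chr11:101226449-101226713 (minus strand), Ezh2 at chr6:47595016-47595280 (minus strand) and Suz12 at chr11:79992856-79993120 (plus strand). Capitals mark 3 motifs known from cell cycle promoters, searched on both strands. They are the E2F motif (TTTCCCGC, TTTCGCGC, TTTGCCGC or TTTGGCGC), the CHR motif (TTTGAA) and the CCAAT box (CCAAT). Some of these could overlap, but no marked matches do.
Ezh2: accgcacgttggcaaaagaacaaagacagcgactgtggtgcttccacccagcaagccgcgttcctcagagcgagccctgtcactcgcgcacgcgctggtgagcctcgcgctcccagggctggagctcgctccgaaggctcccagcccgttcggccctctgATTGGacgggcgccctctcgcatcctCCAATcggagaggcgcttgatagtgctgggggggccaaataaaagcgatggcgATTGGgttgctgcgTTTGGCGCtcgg
Suz12: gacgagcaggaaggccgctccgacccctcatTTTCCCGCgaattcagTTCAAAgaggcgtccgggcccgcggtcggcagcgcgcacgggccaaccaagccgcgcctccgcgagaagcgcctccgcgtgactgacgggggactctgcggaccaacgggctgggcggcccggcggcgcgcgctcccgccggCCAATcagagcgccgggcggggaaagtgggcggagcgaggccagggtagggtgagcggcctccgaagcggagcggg
Ezh1: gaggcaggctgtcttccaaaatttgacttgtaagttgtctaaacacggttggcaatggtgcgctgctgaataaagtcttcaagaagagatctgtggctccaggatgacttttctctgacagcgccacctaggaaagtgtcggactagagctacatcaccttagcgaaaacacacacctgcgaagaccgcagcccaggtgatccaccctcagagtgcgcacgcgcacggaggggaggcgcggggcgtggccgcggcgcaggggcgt

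In the table's 300-base promoters, from 250 bases before to 50 after the start, all 6 genes were matched. An E2F motif was found in Ezh2 and in Suz12, and in 2.26% of all 32851 promoters of that length. The Ezh2 promoter also held 3 CCAAT boxes and the Suz12 promoter held 1, beside 37.4% of all promoters with at least 1. A CHR motif occurred in Suz12, Eed and Asxl1, and in 17.9% of all promoters, and Eed held 1 CCAAT box. The promoters of Ezh1 and Bmi1 held none of these letter strings. A match describes letters, not a bound site, and the RefSeq start of Ezh2 lies within the gene as GENCODE M21 draws it (chr6:47530139-47595341).

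Ezh2 and Suz12 were higher in cycling cells. Ezh1 was lower at full depth, but once cells were thinned to the same depth its intervals overlapped between the Mki67 classes. Cells with at least 1 UMI of Mki67, a nuclear protein of dividing cells, were compared with cells without one inside each library. The Mki67-positive cells had higher levels of all 6 other cycling markers (Top2a, Ccnb1, Cdk1, Birc5, Pcna and Mcm5) in both libraries. They were also deeper, with a median of 12734 UMIs in the WT library and 12796 in the KO-labelled library, against 6996 and 7261 in Mki67-negative cells.

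Ezh2, the main PRC2 methyltransferase of dividing cells, stood at 208 CPM (205 to 211) in Mki67-positive and 107 CPM (104 to 111) in Mki67-negative cells of the WT library. Among KO-labelled cells it stood at 204 CPM (201 to 207) and 88.8 CPM (86.1 to 91.6). The positive cells were thus higher 1.94-fold (1.87 to 2.02) in the WT library and 2.3-fold (2.22 to 2.38) in the other. Suz12, the PRC2 scaffold subunit, stood at 120 and 79 CPM in the WT library, a ratio of 1.52 (1.45 to 1.59). The KO-labelled cells gave 117 and 72.3 CPM, a ratio of 1.62 (1.55 to 1.68).

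These were the only members past 1.5-fold, 2 of the 4 at 20 CPM or more, in each library. Of all genes at that level, 5.96% were at least 1.5-fold higher in Mki67-positive cells in the WT library and 8.45% in the KO-labelled library. Ezh2 ranked above 96.4% of genes by this ratio in the WT library and above 96.2% in the other, and Suz12 above 94.3% and 93%. Suz12 sat close to the limit: its WT ratio was 1.38 under a stricter cell filter (1000 or more genes, mitochondrial share up to 5%), and its log2 ratio went from 0.60 to 0.52, below 1.5-fold, with ribosomal protein and mitochondrial genes left out of the total. Ezh2 stayed between 1.7 and 2.19 in the WT library and between 2.11 and 2.55 in the KO-labelled library over 8 alternatives.

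Eed and Asxl1 were higher in Mki67-positive cells by less. Eed, the PRC2 subunit that reads the complex's own mark, stood at 50.4 against 38.2 CPM in the WT library and 47.6 against 40.3 CPM in the KO-labelled library. Its ratios were 1.32 (1.24 to 1.41) and 1.18, with an interval from 1.12 up. Asxl1 stood at 48.5 against 37.5 CPM and at 45.5 against 37.6 CPM, with ratios of 1.29 (1.21 to 1.38) and 1.21 (1.14 to 1.28). All of these intervals lie above 1 and below 1.5. Among cells thinned to 3000 UMIs each, the KO-labelled ratio of Eed was 1.1.

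Ezh1 went the other way at full depth. It stood at 13 CPM (12.3 to 13.8) in Mki67-positive and 17.6 CPM (16.2 to 19.2) in Mki67-negative cells of the WT library, a ratio of 0.739 (0.666 to 0.821). The KO-labelled levels were 13 CPM (12.2 to 13.9) and 16.2 CPM (15.1 to 17.4), a ratio of 0.804 (0.729 to 0.886). Only 6.12% of genes had a lower ratio in the WT library and 13.2% in the other, although Ezh1 itself lay below 20 CPM. Among cells thinned to 3000 UMIs each, the ratios were closer to 1, at 0.891 and 0.901, given here without intervals. A lower level of Ezh1 at equal depth is therefore not settled. Bmi1, the PRC1 subunit, did not separate the groups at this depth, with 14.4 against 15.1 CPM in the WT library and 13.2 against 13.6 CPM in the KO-labelled library. Its ratios were 0.953 (0.856 to 1.06) and 0.969 (0.875 to 1.07).

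**Figure D1:**
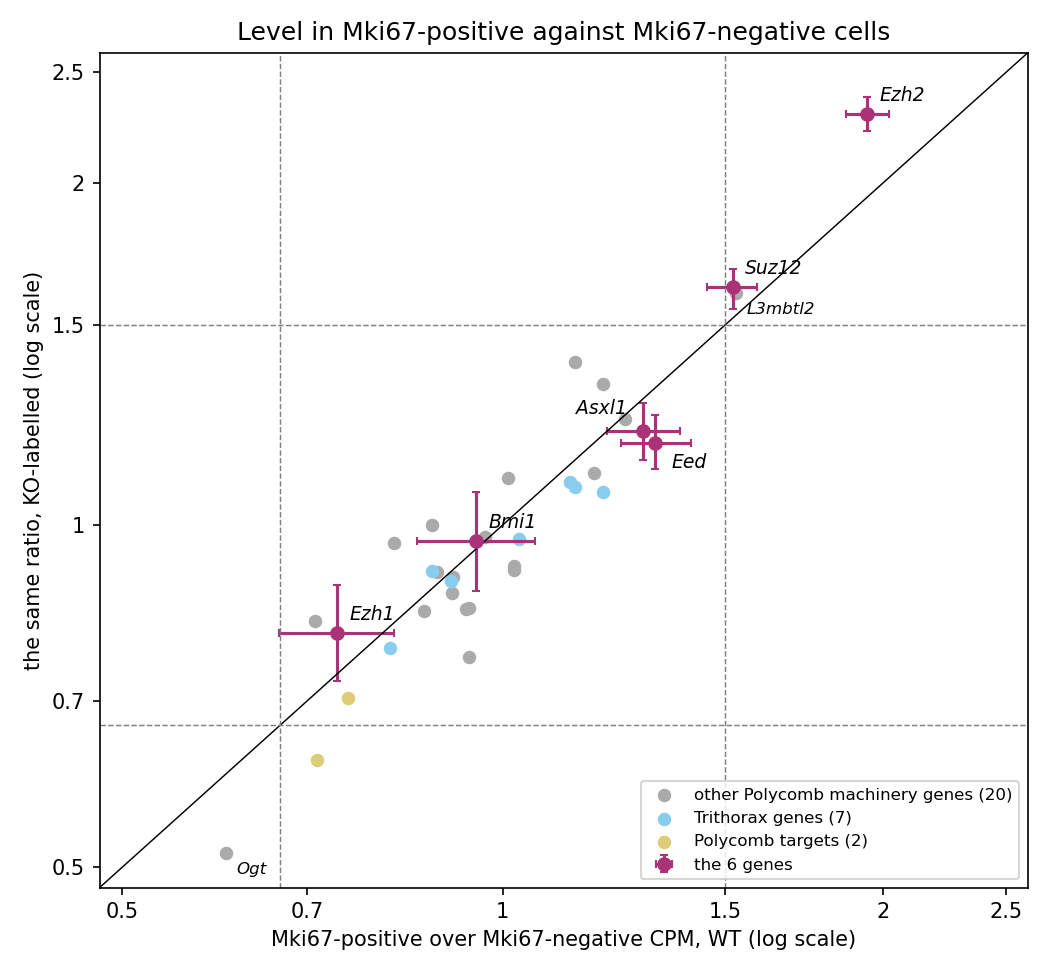
CPM in Mki67-positive over Mki67-negative cells in the WT library (horizontal axis) and the KO-labelled library (vertical axis), both log scales. Bars are 95% counting intervals, dashed lines 1.5-fold either way and the solid line equal ratios, and the other points are the Polycomb machinery, Trithorax and target genes at 20 CPM or more in both libraries. Among the genes plotted, Ezh2 lies furthest to the upper right at 1.94 and 2.3, and Ezh1 lies below 1 on both axes.

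Cells were also grouped by the number of Mki67 UMIs after each cell was thinned to 3000 UMIs. In the WT library Ezh2 stood at 116 CPM in cells with 0 Mki67 UMIs, 180 CPM with 1, 229 CPM with 2 to 3, 259 CPM with 4 to 7 and 287 CPM with 8 or more. The same classes of KO-labelled cells gave 98.2, 183, 212, 232 and 301 CPM. Ezh2 was thus higher with each step of Mki67 in both libraries. The highest class, of 94 WT and 112 KO-labelled cells, overlapped the one below it (228 to 357 against 239 to 280 CPM in the WT library). The intervals with 2 to 3 and with 4 to 7 Mki67 UMIs also overlapped. They were 216 to 244 and 239 to 280 CPM (WT), and 198 to 226 and 213 to 252 CPM (KO-labelled).

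Suz12 stood at 85.8 CPM with 0 Mki67 UMIs and between 124 and 140 CPM in the 4 other WT classes. Its KO-labelled levels were 75.8, 111, 125, 137 and 173 CPM. Asxl1 was at 36.8, 42, 56.3, 67.2 and 53.2 CPM over the WT classes, the last with an interval of 29.8 to 87.7 CPM. The KO-labelled classes gave 41.1, 41.9, 46.2, 61.2 and 95.2 CPM, the last with an interval of 65.1 to 134 CPM. Eed stood at 39.9, 48.4, 52.1, 55.8 and 56.7 CPM over the WT classes. Its KO-labelled levels gave no order, at 40.7, 48.5, 38, 50.2 and 41.7 CPM. Ezh1 gave no order of classes, with overlapping intervals in all 5 classes of each library.

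**Figure D2:**
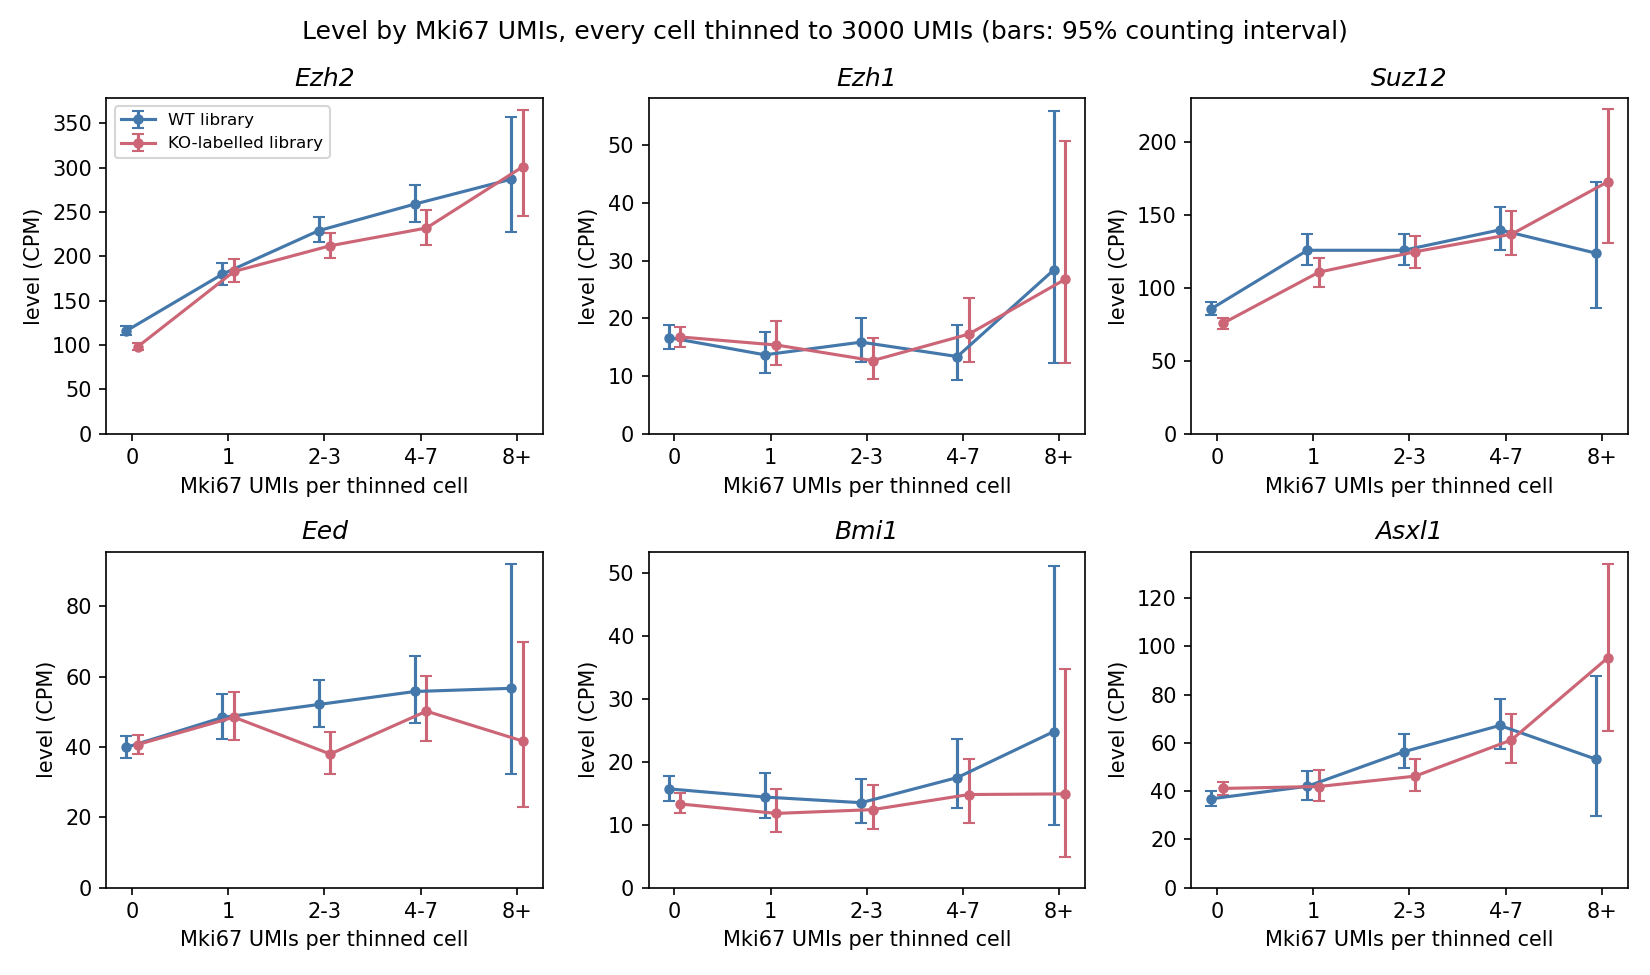
Level (CPM, vertical axis) of each gene by the number of Mki67 UMIs in a cell (horizontal axis) after thinning every cell to 3000 UMIs, for the WT and the KO-labelled library. Bars are 95% counting intervals. Ezh2 climbs from 116 to 287 CPM in the WT library and from 98.2 to 301 CPM in the KO-labelled library, while Ezh1 and Bmi1 stay flat within their intervals.

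Ezh1 was highest in Procr-positive cells. Procr encodes the endothelial protein C receptor, a surface marker of stem cells, and 938 WT and 788 KO-labelled cells had at least 1 UMI of it. The other stem markers Hlf, Mecom, Meis1, Ly6a and Mllt3 were higher in these cells than in Procr-negative cells in both libraries, and Ctnnal1 was higher in the WT library only (13.1 against 12.3 CPM, and 3.94 against 5.35 CPM in the other). The 3 further classes were cells with at least 3 UMIs of Pf4, a platelet chemokine of megakaryocytes, and cells with a UMI of Mpo, a granule enzyme of myeloid progenitors, or of Car1, an erythroid carbonic anhydrase. In these 3 classes every other marker of the lineage was higher than in the negative cells. The classes overlap: 18.9% of WT Procr-positive cells also had 3 or more Pf4 UMIs, and 7.49% of the KO-labelled ones.

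The level of Ezh1 in the WT library was 20 CPM (17.3 to 22.9) in Procr-positive, 13.9 CPM in Car1-positive, 13.5 CPM in Pf4-positive and 12.9 CPM in Mpo-positive cells. Among KO-labelled cells it was 21.4 CPM (18.3 to 24.9) in Procr-positive, 12.8 CPM in Car1-positive, 12.6 CPM in Mpo-positive and 11.8 CPM in Pf4-positive cells. In both libraries the Procr-positive interval lay above those of the other 3 marker classes, which overlapped one another, and in the WT library it overlapped that of Mki67-negative cells. Against Procr-negative cells the ratio was 1.45 (upper bound 1.68) in the WT library and 1.56 (1.32 to 1.83) in the KO-labelled library.

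Of the 24 pairs of a member and a marker class, 16 in the WT library and 17 in the KO-labelled library stood at 20 CPM or more, and 0 and 1 of these were past 1.5-fold. Over all genes and the 4 marker classes, 7.08% and 9.41% of pairs at that level were. The 1 pair was Ezh1 in KO-labelled Procr-positive cells, which reached 20 CPM only through the class where it is high (in the WT library it fell just short of that level), so the count is given as a description and nothing is read from it. The Ezh1 value rests on 201 and 168 UMIs. Among Mki67-negative cells only, the log2 ratio fell from 0.54 to 0.31 in the WT library and from 0.64 to 0.41 in the KO-labelled library. Among thinned cells it was 0.22 and 0.57.

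Ezh2 was lower in Procr-positive than in Procr-negative cells, at 129 against 185 CPM among WT cells and 141 against 162 CPM among KO-labelled cells. The ratios were 0.697 (0.659 to 0.738) and 0.869 (0.817 to 0.923). Over 9 alternatives the WT ratio ran from 0.467 (thinned cells) to 0.877 (stricter cell filter). The KO-labelled ratio ran from 0.699 (cells positive for 1 marker only) to 0.951 (stricter cell filter). Ezh2 lay higher in the other 3 marker classes, at 194 CPM in Car1-positive, 190 CPM in Pf4-positive and 182 CPM in Mpo-positive WT cells. The KO-labelled Pf4-positive cells stood at 179 CPM, Car1-positive cells at 175 CPM and Mpo-positive cells at 163 CPM. Neighbours in that order overlapped in the WT library, and in the KO-labelled library only Pf4- and Car1-positive cells did. Suz12 had the same order in both libraries, from Pf4-positive (119 and 116 CPM) through Car1-positive (112 and 107 CPM) and Mpo-positive (106 and 98.8 CPM) to Procr-positive cells (86.1 and 89.3 CPM).

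**Figure D3:**
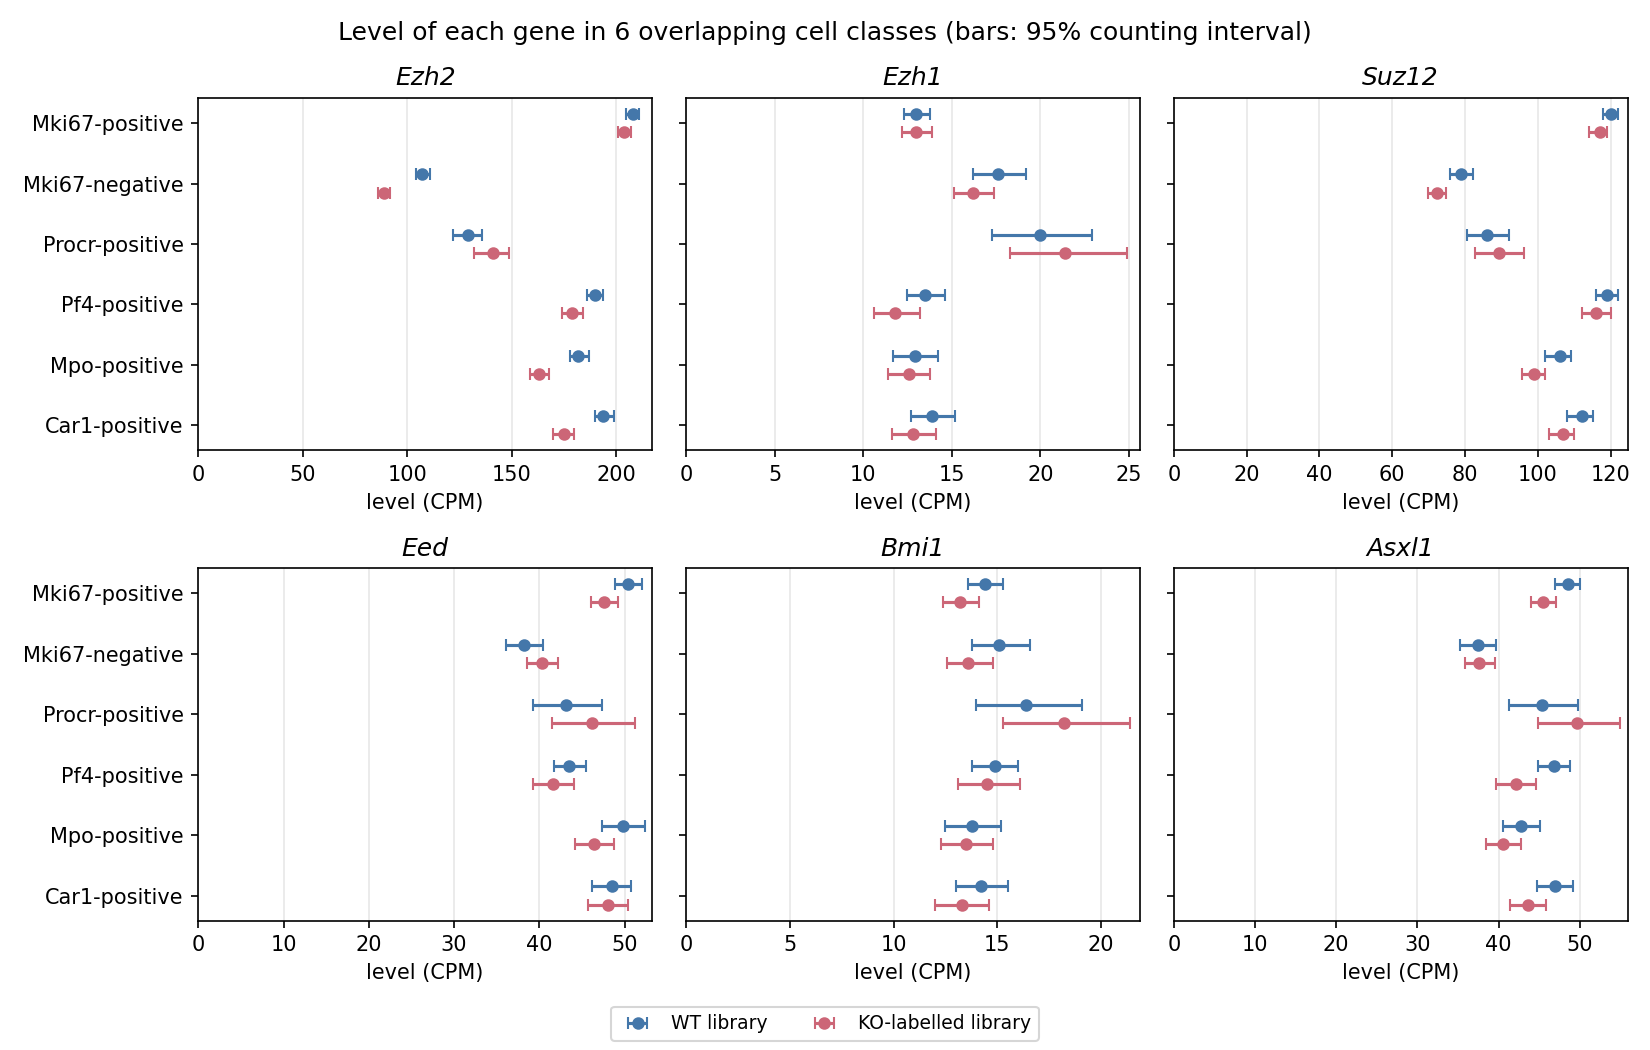
Level (CPM, horizontal axis) of each gene in the 6 overlapping cell classes (vertical axis) in the WT and the KO-labelled library, with 95% counting intervals. Ezh2 is highest in Mki67-positive cells at 208 and 204 CPM, Ezh1 is highest in Procr-positive cells at 20 and 21.4 CPM, and the lowest class of Ezh2 and Suz12 is Mki67-negative cells.

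Procr-positive cells also had a Mki67 UMI less often: 34.6% of the WT ones did and 35.9% of the KO-labelled ones, against 69.3% and 59% of Pf4-positive, 69.1% and 58.4% of Mpo-positive and 67.9% and 57.6% of Car1-positive cells. Procr-positive cells were shallower, with medians of 7690 and 7776 UMIs against 11093 to 12920 in the other 3 marker classes, and the part of depth in these shares was not tested. The marker classes were therefore split by Mki67. Within Procr-positive cells Ezh2 stood at 178 CPM (167 to 190) in Mki67-positive and 67.2 CPM (59.8 to 75.2) in Mki67-negative WT cells. The KO-labelled values were 202 CPM (188 to 216) and 73.7 CPM (65.2 to 82.9). In Mki67-positive cells of the other 3 marker classes Ezh2 lay between 195 and 209 CPM in the WT library. The KO-labelled ones gave 217 CPM (Pf4), 201 CPM (Car1) and 191 CPM (Mpo), so Procr-positive cells were not the lowest there. In Mki67-negative cells these 3 classes lay between 116 and 126 CPM (WT) and between 89.2 and 97.8 CPM (KO-labelled).

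Ezh1 followed that split in Car1-positive cells, and its intervals overlapped in the other 3 marker classes. In Procr-positive cells it stood at 19.1 CPM (15.6 to 23) with and 21.1 CPM (17.1 to 25.8) without Mki67 in the WT library, and at 21.7 CPM (17.4 to 26.7) and 21 CPM (16.6 to 26.2) in the KO-labelled library. In Pf4-positive cells it stood at 13.4 and 14 CPM (WT) and at 11.1 and 13.4 CPM (KO-labelled), and in Mpo-positive cells at 12.5 and 14.8 CPM and at 12.5 and 12.7 CPM. Car1-positive cells gave 12.8 CPM (11.5 to 14.2) with and 19.1 CPM (15.8 to 22.8) without Mki67 in the WT library, and 11.3 CPM (9.99 to 12.7) and 17.4 CPM (14.7 to 20.5) in the other. The number of Ezh2 UMIs per Ezh1 UMI sets the balance of these transcripts side by side between classes, and no protein was measured. It was 16 (15 to 17) in Mki67-positive and 6.07 (5.55 to 6.66) in Mki67-negative WT cells, and 6.46 (5.57 to 7.54) in Procr-positive WT cells. The KO-labelled library gave 15.6, 5.48 and 6.58, and the Pf4-, Mpo- and Car1-positive cells of both libraries lay between 13 and 15.1.

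**Figure D4:**
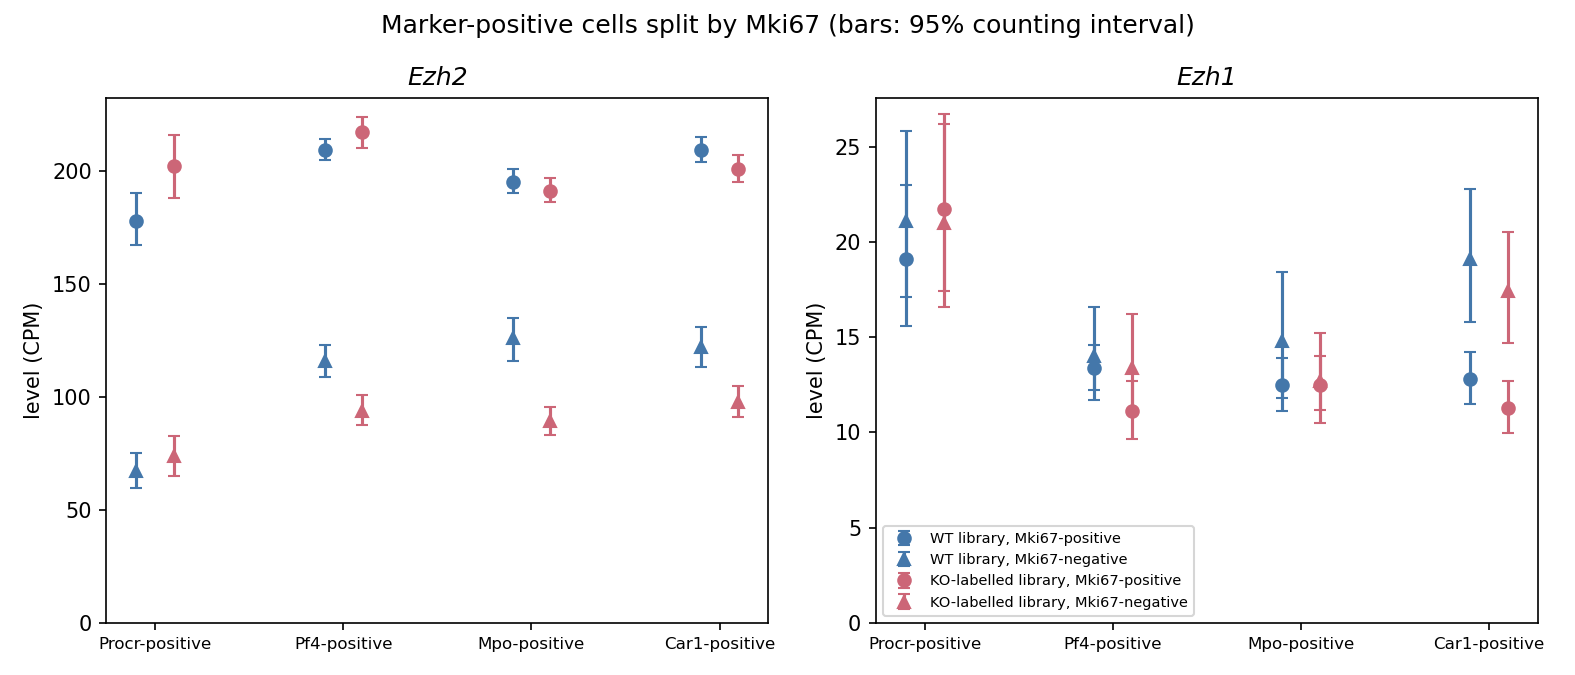
Level (CPM, vertical axis) of Ezh2 (left) and Ezh1 (right) in the 4 marker-positive classes (horizontal axis), split into Mki67-positive (circles) and Mki67-negative (triangles) cells of the WT and the KO-labelled library, with 95% counting intervals. Ezh2 separates by Mki67 in every class, from 178 against 67.2 CPM in WT Procr-positive cells, and Ezh1 separates in Car1-positive cells, with overlapping intervals in the other 3 classes.

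Eed, Asxl1 and Bmi1 also differed between some marker classes. Intervals lay apart for Eed in both libraries, and for Asxl1 and Bmi1 in the KO-labelled library only. Eed lay between 43.1 CPM (Procr-positive) and 49.8 CPM (Mpo-positive) in the WT library and between 41.6 CPM (Pf4-positive) and 48 CPM (Car1-positive) in the KO-labelled library. Asxl1 lay between 42.8 CPM (Mpo-positive) and 46.9 CPM (Car1-positive) in the WT library. In the KO-labelled library it lay between 40.6 CPM (38.5 to 42.8, Mpo-positive) and 49.7 CPM (44.9 to 54.9, Procr-positive). The Asxl1 ratio to Procr-negative cells was 0.999 (0.905 to 1.1) in the WT library and 1.18 (1.06 to 1.31) in the other. Bmi1 was highest in Procr-positive cells, at 16.4 CPM (14 to 19.1) and 18.2 CPM (15.3 to 21.4), and its other marker classes lay between 13.8 and 14.9 CPM in the WT library and between 13.3 and 14.5 CPM in the other. Its ratio to Procr-negative cells was 1.14 (0.96 to 1.33) in the WT library and 1.39 (1.17 to 1.66) in the KO-labelled library.

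The ratio between the libraries was under 1.5-fold for all 6 genes. Over all kept cells Ezh2 stood at 180 CPM (WT) and 160 CPM (KO-labelled), a ratio of 0.89 (0.873 to 0.908). Suz12 stood at 109 and 100 CPM, a ratio of 0.92 (0.897 to 0.944). Eed stood at 47 and 44.9 CPM (0.955, 0.919 to 0.992), Asxl1 at 45.5 and 42.5 CPM (0.936, 0.9 to 0.973) and Bmi1 at 14.6 and 13.4 CPM (0.915, 0.854 to 0.981). Ezh1 stood at 14.3 and 14.2 CPM, a ratio of 0.995 (0.929 to 1.07). Thus 0 of the 4 members at 20 CPM or more were past 1.5-fold, where 4.29% of all genes at that level were.

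The small shifts depended on the scaling and on the cells used. All 6 ratios were below 1, but so was the median over all genes, at -0.07 on the log2 scale, against -0.11 over the 4 members at 20 CPM or more. With TMM factors, which centre the bulk of genes, the ratios of Ezh1, Eed and Asxl1 became 1.06, 1.02 and 1, while Ezh2 was at 0.953, Suz12 at 0.985 and Bmi1 at 0.98. The share of Mki67-positive cells moved in the same sense, from 57.8% (56.8 to 58.8) in the WT to 47.4% (46.4 to 48.3) in the KO-labelled library, and from 42.4% to 34.7% among thinned cells. With the Mki67 groups weighted equally, the ratio was 0.929 for Ezh2, 0.951 for Suz12, 0.993 for Eed and 0.967 for Asxl1, each nearer to 1. For Ezh1 and Bmi1 it was further from 1, at 0.953 and 0.909. Among male cells only, the ratio was 0.843 (0.801 to 0.887) for Ezh2 and 0.884 (0.829 to 0.942) for Suz12. Asxl1 was at 0.845 (0.762 to 0.935), Bmi1 at 0.812 (0.672 to 0.975), Eed at 0.911 and Ezh1 at 0.981 there. The median over the members at 20 CPM or more was then -0.21 on the log2 scale, against -0.08 over all genes.

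Inside the cell classes the ratios between the libraries ran from 0.829 to 1.11. Of the 36 pairs of a member and a class, 25 stood at 20 CPM or more and 0 of these 25 were past 1.5-fold, where 4.92% of all gene and class pairs at that level were. The other 11 pairs, Bmi1 in every class and Ezh1 in all but Procr-positive cells, were too low to count. The lowest was Ezh2 in Mki67-negative cells, at 107 CPM in the WT and 88.8 CPM in the KO-labelled library (0.829, 0.792 to 0.868), against 0.98 (0.959 to 1) in Mki67-positive cells. Over 10 alternatives the Mki67-negative value lay between 0.756 and 0.898. Among the split marker classes, Ezh2 stood at 126 and 89.2 CPM in Mki67-negative Mpo-positive cells, at 116 and 93.9 CPM in Pf4-positive ones and at 122 and 97.8 CPM in Car1-positive ones. Mpo-positive cells differed in make-up between the libraries, with 4 basophil and mast markers summing to 852 and 200 CPM and 5 neutrophil markers to 55.8 and 961 CPM, and their part in the Ezh2 value was not tested. In Mki67-negative Procr-positive cells it stood at 67.2 and 73.7 CPM, with overlapping intervals. Pcna and Mcm5, genes of DNA replication, also differed in Mki67-negative cells, from 69.4 to 48.6 CPM and from 113 to 74.7 CPM. The part of S-phase cells without a Mki67 UMI in the Ezh2 value was not tested.

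In Procr-positive cells all 6 ratios were above 1, from 1.04 to 1.11, and in the other 5 classes 28 of 30 were at or below 1. Only 1 of the 6 Procr-positive intervals, that of Ezh2 (1.09, from just above 1 to 1.18), did not hold 1, and the median over all genes in these cells was -0.05 on the log2 scale. The alternatives spread widely there, from 0.793 to 4.06 for Bmi1, 1.03 to 2.25 for Asxl1, 0.46 to 1.3 for Eed, 0.809 to 1.23 for Suz12, 0.925 to 1.29 for Ezh1 and 0.928 to 1.27 for Ezh2. Those of Bmi1 (higher marker cut-offs), Asxl1 (thinned cells) and Eed (male cells, and higher marker cut-offs) pass 1.5-fold, and the direction changed in at least 1 alternative for every member but Asxl1.

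**Figure D5:**
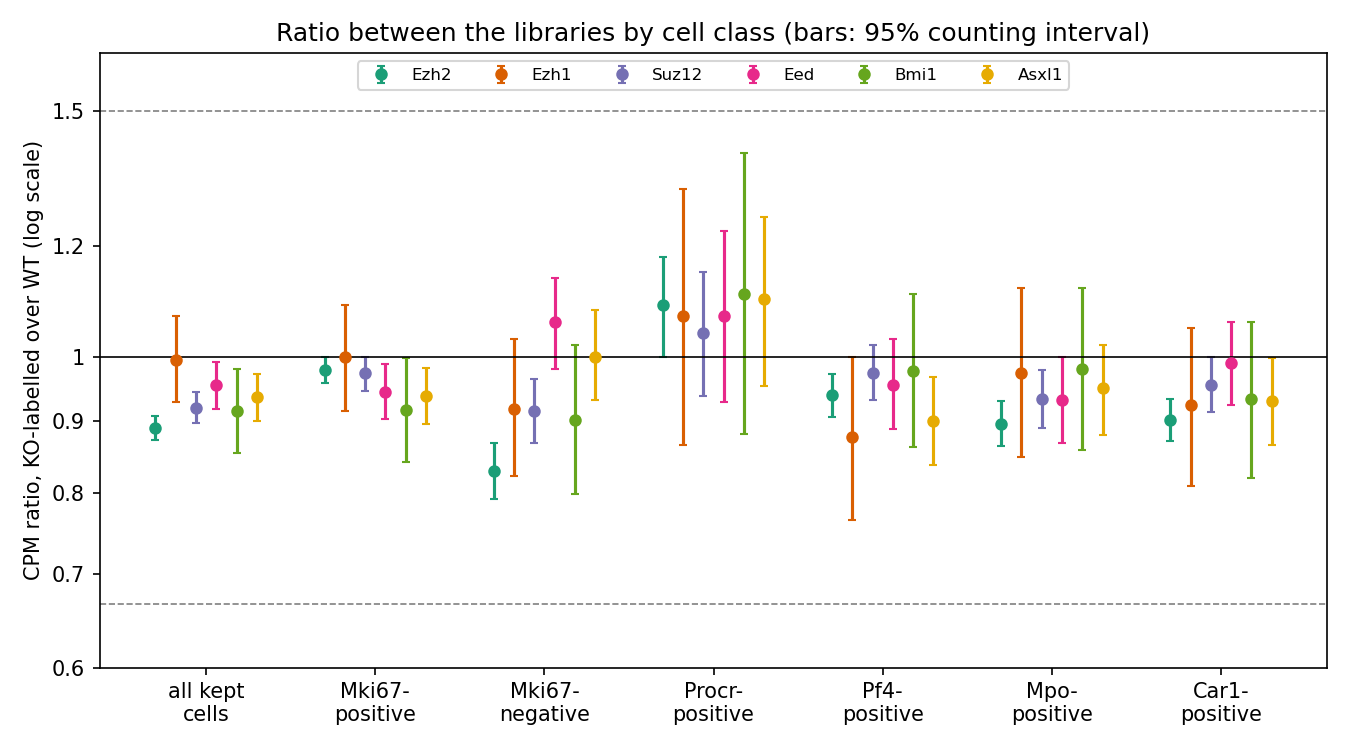
CPM ratio of the KO-labelled over the WT library (vertical axis, log scale) for each gene over all kept cells and in the 6 classes (horizontal axis), with 95% counting intervals and dashed lines at 1.5-fold either way. All ratios lie between 0.829 and 1.11, with Ezh2 in Mki67-negative cells lowest.

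The rest of the Polycomb machinery was read from a list of 47 genes, members included, of which 25 stood at 20 CPM or more in either library. Of these 25, 9 were higher and 16 lower in the KO-labelled library, with a median of -0.12 on the log2 scale beside -0.07 for all genes, and 1 was past 1.5-fold. That was Cbx6, one of the PRC1 subunits that bind the methyl mark, at 28.2 and 18.2 CPM (0.643, 0.609 to 0.68). Cbx6 reached 20 CPM only in the WT library, where it is higher, so nothing is read from its call. The share, 1 of 25, is close to the 4.29% of all genes. The call was lost with TMM factors (log2 ratio -0.54), without ribosomal protein and mitochondrial genes in the total (-0.58) and under the stricter cell filter (-0.41). In male cells the ratio was 0.663 (0.57 to 0.768). Scmh1, another PRC1 component, followed at 24.9 and 19.6 CPM (0.788), and Phc2 stood at 28.4 and 30.1 CPM (1.06).

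Over all kept cells, other PRC2 genes moved less than 1.5-fold between the libraries. The shared histone-binding subunits Rbbp4 and Rbbp7 had ratios of 1.01 and 0.909. The accessory subunits Aebp2 and Mtf2 stood at 39.4 and 29.8 CPM (0.755, 0.722 to 0.789) and at 101 and 84.8 CPM (0.841), while Jarid2 was higher, at 38.7 and 44.1 CPM (1.14, 1.09 to 1.19). In male cells these 3 ratios were 0.72, 0.848 and 1.16. Among PRC1 genes Pcgf6 was at 0.807, Pcgf5 at 0.906, and the ubiquitin ligases Ring1 and Rnf2 both at 1.04. Of the variant PRC1 genes, Kdm2b, which binds unmethylated CpG sites, was at 0.794, L3mbtl2 at 0.809, Yaf2 and Bcor at 1.02. Among Pf4-positive cells, 1 of 3 accessory PRC2 genes at 20 CPM or more was past 1.5-fold higher in the KO-labelled library. Of all 5963 genes at that level there, 159 were.

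On the Asxl side, Asxl2 was at 48.5 and 47.6 CPM (0.982), Hcfc1 at 0.848, Mbd6 at 0.851 and Ogt at 1.07. Kdm6a, a demethylase that removes the PRC2 mark, was at 19.2 and 26.3 CPM (1.37, 1.3 to 1.45). It is X-linked, and among male cells its ratio was 0.784 (0.662 to 0.923), the opposite direction. Rbbp7, Bcor, Hcfc1 and Ogt are X-linked too, with ratios of 0.881, 1.03, 0.798 and 1.02 among male cells. Of the Trithorax genes, whose products oppose Polycomb, 8 of 11 stood at 20 CPM or more and all 8 had ratios below 1, with a median of -0.19 on the log2 scale and none past 1.5-fold. Of all genes at that level 65.1% had ratios below 1, with a median of -0.07, and with TMM factors 6 of the 8 did. The lowest were Men1 (0.789), Wdr5 (0.829), Setd1b (0.837) and Kmt2c (0.854).

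By Mki67, 24 of the 47 machinery genes stood at 20 CPM or more in both libraries. Of these 24, 3 were past 1.5-fold higher in both (12.5%) and 1 was lower (4.17%), where 5.83% of all genes at that level were higher and 2.12% lower. Ezh2 and Suz12 are among the 3, and the genes were chosen with earlier results known, so nothing particular to the list is read from these shares. The third higher gene was L3mbtl2, at 24.2 CPM in Mki67-positive and 15.8 CPM in Mki67-negative WT cells (1.53, 1.38 to 1.69). Its KO-labelled levels were 20.6 and 12.9 CPM (1.6, 1.45 to 1.76). L3mbtl2 reached 20 CPM only through the cells where it is high, so nothing is read from its call. The lower one was Ogt, the enzyme that adds N-acetylglucosamine to proteins, at 205 CPM in Mki67-negative and 124 CPM in Mki67-positive WT cells (0.604, 0.585 to 0.623). The KO-labelled values were 223 and 115 CPM (0.515, 0.501 to 0.531). All 5 PRC2 core genes at 20 CPM or more were higher in Mki67-positive cells, Rbbp4 at 1.2 and 1.33 and Rbbp7 at 1.14 and 1.39. The 4 Ring and Pcgf genes at that level were all lower, with ratios from 0.82 to 0.964, and the KO-labelled interval of Pcgf6 (0.889 to 1.05) held 1. Of all genes at that level, 3544 of 6077 were higher and 2533 lower in the WT library. In the KO-labelled library 3212 of 5892 were higher and 2680 lower. The median over the machinery genes was -0.02 on the log2 scale in the WT and -0.04 in the KO-labelled library, beside 0.05 and 0.04 for all genes.

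Of 10 genes known as Polycomb targets, 2 stood at 20 CPM or more in either library and neither was past 1.5-fold between them. Hoxa7 was at 32.9 and 32.7 CPM (0.996, 0.952 to 1.04) and Hoxa9 at 35.3 and 32.7 CPM (0.925, 0.885 to 0.967). Both, transcription factors of blood progenitors, were lower in Mki67-positive cells, Hoxa7 at 0.713 and 0.621 and Hoxa9 at 0.754 and 0.704 in the WT and KO-labelled libraries.

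The patterns of the members were also set beside those of 5652 other genes over 12 profiles, the 6 classes of both libraries, by Pearson's r of log2(CPM + 1). These profiles share libraries and cells, so r is a description. Most like Ezh2 were Tmpo, a nuclear lamina protein (r = 0.992), Rbmx2 (0.991) and Cenph, a centromere protein (0.99). Most like Suz12 were Rbmx2 (0.984), Nucks1 (0.982) and the condensin gene Ncapd3 (0.98). Ezh1 was most like Clk1, a splicing kinase (0.977), Cwf19l2 (0.972) and Fiz1 (0.966). The genes nearest to Bmi1 were Hltf (0.925), Ldah and Rab3gap2 (both 0.917), and those nearest to Asxl1 were Cep85 (0.895), Cspp1 (0.889) and Actr1a (0.886). Eed lay closest to Cby1 (0.909), the replication licensing gene Cdc6 (0.897) and Selenoh (0.894). Among the members, Ezh2 and Suz12 had r = 0.978, Ezh1 and Bmi1 0.812, and Ezh1 and Ezh2 -0.667.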

How the data were processed

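The authors deposited, for each library, a matrix of raw UMI counts. The submitters' processing notes name Cell Ranger 2.1.1 and the mm10 build, and the file headers name software version 3.1.0. The libraries followed the 3′ v2 kit, per the labels' protocols. Counts were used as deposited. The genes and lists were chosen with earlier results of these data known.

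Groups were taken from the genotype labels. Doublets were not removed. UMIs were summed over cells by library and class and scaled to CPM. The 95% intervals are exact: Poisson for sums, conditional binomial for ratios and Clopper-Pearson for shares. PCR and sampling of animals are not covered by them. Replicates were absent, so no p-value was computed. Cells counted as male had Y-linked UMIs (Uty, Kdm5d, Eif2s3y or Ddx3y) without Xist, and cells counted as female had 2 or more Xist UMIs without Y-linked ones.

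Beside the 6 genes, up to 4 genes at 20 CPM or more were named from each list by the size of each of the 2 ratios (between the libraries, and by Mki67), and the 3 genes most like each member. Candidates for likeness stood at 20 CPM or more, without class markers, ribosomal, mitochondrial, Xist, Y-linked, haemoglobin and unnamed genes. Gene bounds came from GENCODE M21 (GRCm38) and promoters from RefSeq. Steps were tested on simulated sums. Alternatives covered the scaling (TMM in edgeR 4.0.16), cell filters, depth, class cut-offs and thresholds. Python 3.11.15 with pandas 2.3.3, scipy 1.17.1, numpy 2.4.6 and matplotlib 3.10.9 was used.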

Additional observations from a re-analysis of the deposited data

How the results depend on the processing

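No paired analysis was possible because there was 1 library per genotype. The counts past 1.5-fold are small, so single genes near the limit moved them, and the cause was not tested. Without ribosomal protein and mitochondrial genes in the total, members past the limit by Mki67 in the WT library went from 2 to 1, marker pairs there from 0 to 1, machinery genes between the libraries from 1 to 0 and targets from 0 to 1. With TMM factors the machinery count was 0. With at least 1000 genes and at most 5% mitochondrial UMIs, members by Mki67 in the WT library were 1, KO-labelled marker pairs 0, machinery genes between the libraries 0 and machinery genes by Mki67 in both libraries 1 instead of 4. Without the 5% deepest cells, marker pairs were 2 in the WT and 0 in the KO-labelled library. Thinning to 3000 UMIs gave 1 pair of a member and a class between the libraries, 3 marker pairs in the WT library, 0 in the other and 2 machinery genes by Mki67. The lower fold limit tried gave 4 members by Mki67 in the WT library, 2 marker pairs in each library and 5 machinery genes between the libraries. At 2-fold these were 0 members in the WT and 1 in the KO-labelled library, 0 KO-labelled marker pairs and 0 machinery genes in both comparisons. A minimum of 5 CPM gave 2 machinery genes and 2 targets between the libraries, and one of 50 CPM gave 0 machinery genes and 0 KO-labelled marker pairs. Male cells gave 1 pair between the libraries. Higher marker cut-offs (3 UMIs, for Pf4 10) gave 2 such pairs, and 1 and 3 marker pairs in the WT and KO-labelled library. Cells positive for 1 marker only gave 3 WT marker pairs, and Mki67-negative cells only gave 1 and 0. The other 82 counts under alternatives were within 1.5 times the main count. Genes below 20 CPM and Procr-positive cells, with 143 to 201 UMIs of Ezh1 or Bmi1, are where depth limits the comparison most.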

Other observations

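Genes of the lists that stood below 20 CPM in both libraries were outside the counts, and those named here were chosen after their values were seen. Cdkn2a, a cell cycle inhibitor locus and a classical Polycomb target, was rare in both libraries. It had 33 UMIs in 31 WT cells, 0.293 CPM (0.202 to 0.411), and 147 UMIs in 140 KO-labelled cells, 1.23 CPM (1.04 to 1.45), which is 4.21-fold higher (2.87 to 6.34). Of the KO-labelled UMIs 124 were in Mki67-positive cells, and 71 in Pf4-positive, 29 in Mpo-positive, 24 in Car1-positive and 3 in Procr-positive cells. Its neighbour Cdkn2b had 1 and 15 UMIs (ratio 14.2, 2.18 to 596). The B cell genes of the target list went the other way: Ebf1 had 96 UMIs in 21 WT cells and 15 UMIs in 10 KO-labelled cells (0.148, 0.0795 to 0.256), with up to 24 UMIs in 1 WT cell, and Pax5 had 13 UMIs in 8 WT cells and 0 UMIs among KO-labelled cells.

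The 4 Hox genes of the target list that lay below 20 CPM all had ratios below 1. Hoxa10 stood at 14.9 CPM (14.2 to 15.7) among WT and 7.93 CPM (7.43 to 8.45) among KO-labelled cells (0.531, 0.49 to 0.575). Hoxa5 stood at 7.12 and 4.58 CPM (0.643, 0.576 to 0.718), Hoxa3 at 3.38 and 2.26 CPM (0.667, 0.568 to 0.782) and Hoxb4 at 18.3 and 14.6 CPM (0.8, 0.75 to 0.853). Pcgf2, a close relative of Bmi1 in PRC1, stood at 5.23 and 2.93 CPM (0.561, 0.49 to 0.642). The demethylase gene Kdm6b, at 14.1 and 10.9 CPM between the libraries, was lower in Mki67-positive cells of both, at 0.622 (0.562 to 0.69) and 0.495 (0.443 to 0.553).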
